A study of Mus musculus with 36 samples.

Results

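Genes used as markers of pericytes and vascular smooth muscle cells, together called mural cells, were followed here. They were 9 of the 55487 genes in the gene count table. Of these, Pdgfrb, Rgs5, Kcnj8, Abcc9 and Vtn are listed as pericyte genes, and Acta2, Myh11, Tagln and Cnn1 as contractile smooth muscle genes. The genes were taken by symbol from a fixed list, and all 9 were found. That list and the companion lists of other genes were chosen with earlier results of these data known. They were described in 36 bulk RNA-seq libraries of C57BL/6 mice aged 2 to 4 months, 12 each from the unmyelinated optic nerve (UON), the myelinated optic nerve (MON) and the whole retina. The UON is the short stretch behind the eye before myelin begins, and the MON is the first fully myelinated stretch behind it, with the transition between them left out. The groups were naïve mice with both eyes untouched, mice taken 3 days (3D) or 2 weeks (2W) after a forceps crush of 1 optic nerve, and mice taken 3D, 2W or 6 weeks (6W) after injection of microbeads into 1 eye, which raises eye pressure and serves as a glaucoma model. The labels name no transgene or mutant allele in any group. In each tissue each of these 6 conditions had n = 2 libraries, 1 from the pooled RNA of 2 female mice and 1 from that of 2 male mice, and the same mice gave all 3 tissues, so that sex and pool cannot be told apart. Values per gene are given as FPKM, read fragments scaled for transcript length and for the depth of the library, with the female pool first and the male pool second. Log2 fold changes come from a model of the estimated counts per gene with sex as a term. A gene was called at a Benjamini-Hochberg adjusted p under 0.05 over all genes tested and a log2 fold change beyond 1.

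Pericytes sit in the basement membrane of capillaries and steady them, and smooth muscle cells wrap arterioles and set their width. Endothelial cells draw pericytes with platelet-derived growth factor B, which is read by the receptor tyrosine kinase Pdgfrb. Contractile genes of smooth muscle are under serum response factor (SRF) and its cofactors of the myocardin family, which act at short promoter elements called CArG boxes. Several of these contractile genes are also made by myofibroblasts and other cells that pull on matrix. Bulk tissue holds all of these cells at once.

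In GRCm38, Pdgfrb is on chromosome 18, Rgs5 on 1, Vtn on 11 and Myh11 on 16. Acta2 spans chr19:34241090-34255590 on the minus strand. Cnn1 spans chr9:22099216-22109630 on the plus strand and Tagln chr9:45929619-45936058 on the minus strand. Kcnj8 and Abcc9 are neighbours on the minus strand of chromosome 6, 16247 bases apart, and encode the pore and the sulfonylurea receptor of the same ATP-sensitive potassium channel. Tagln overlaps genes on the other strand, Gm48529 over 3627 bases and Pcsk7 over 108 bases. Since the counting is not stated to use strand, their reads cannot be told apart where they overlap. Gm48529 held 13831 counts over the 36 libraries and Tagln 283005, and Gm48529 ran from 2.38 to 18.7 FPKM in UON, 0.762 to 7.12 in MON and 0.187 to 1.06 in retina.

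The libraries held 16158723 to 78054205 estimated counts, with 78054205 in the female and 17757595 in the male pool of naïve MON. Tissue labels held: the 8 photoreceptor genes summed to at least 24657 FPKM in every retina library and at most 127 in any nerve library, the 5 oligodendrocyte genes to at least 19296 FPKM in MON. In UON the oligodendrocyte sum spanned 1053 to 17152 FPKM. The male UON pool at 2W after crush stood apart. It had the lowest oligodendrocyte sum of the UON libraries, and the highest UON sums for fibroblast, sclera and meninges genes (1383 FPKM), endothelial genes (121), pigment cell genes (21.9) and skeletal muscle genes (28.5). Fold changes that rest on it are given with and without it, and levels and correlations include it.

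The levels of the members varied widely, and a level in bulk tissue does not show which cell made the RNA. Vtn, Tagln and Acta2 had medians of at least 28.9 FPKM in UON. In contrast, Myh11, the smooth muscle myosin heavy chain and the most specific marker of mature contractile smooth muscle, did not exceed 0.411 FPKM in any of the 36 libraries, and 1 library had 0 counts (female MON at 2W after crush). Myocd, the cofactor restricted to muscle, stayed at or below 0.173 FPKM in all libraries, and Kcnmb1, a potassium channel subunit of smooth muscle, at or below 0.358. Other muscle genes went the other way, with UON medians of 94.2 FPKM for Myl9, 13.7 for Mylk, 6.00 for Casq2 and 1.09 for Des. Lmod1 ranged from 0.0968 to 2.02 FPKM. Among other pericyte genes, Higd1b ranged from 1.38 to 9.29 FPKM and Notch3 from 0.160 to 1.68. Cspg4, the NG2 proteoglycan of pericytes and oligodendrocyte precursors, had a median of 2.49 FPKM in UON, of 8.63 in MON and of 0.321 in retina. The smooth muscle members other than Myh11 are therefore described as contractile genes, without assigning them to smooth muscle cells.

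Because the contractile genes differed most between the tissues, the 250 bases before the RefSeq start (build GRCm38.p6) were searched on both strands for CArG boxes, which read the same on either strand. Windows were used for 6 members, Rgs5, Kcnj8, Abcc9, Vtn, Acta2 and Cnn1. The contractile genes Myh11 and Tagln had no window in the reference used, and Pdgfrb was left out too. Whether those members hold such elements is therefore not shown here. None of the 6 held a strict CArG box, with only A and T inside, against 1.47% of all 32851 windows. A looser search was then made that allowed 1 G or C inside. It found 2 elements in Acta2 and none in the other 5. At least 1 such element was found in 8.59% of all windows and 2 or more in 0.67%. The Acta2 elements begin 84 and 34 bases before the RefSeq start. They are shown, from RefSeq, in capitals with 10 bases on either side, since Acta2 is the one member whose searched window holds them. The gene table starts Acta2 217 bases farther upstream, so that both elements lie inside the Acta2 span in that annotation. For Cnn1, the gene with the widest range between the nerve regions, the bases before its first annotated start are shown without capitals, as no element was found.
Acta2, chr19:34255438-34255467, minus strand: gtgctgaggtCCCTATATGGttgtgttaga
Acta2, chr19:34255388-34255417, minus strand: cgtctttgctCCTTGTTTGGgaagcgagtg
Cnn1, chr9:22099003-22099215, plus strand: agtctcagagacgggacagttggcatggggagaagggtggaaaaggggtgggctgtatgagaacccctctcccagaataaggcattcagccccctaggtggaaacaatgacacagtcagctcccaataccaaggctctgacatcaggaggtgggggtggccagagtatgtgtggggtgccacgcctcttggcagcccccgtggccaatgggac

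The order of the members by level per length differed between the tissues. Over the 12 libraries of UON the medians were 199.99 FPKM for Tagln, 110.02 for Vtn, 28.9 for Acta2, 20.6 for Cnn1, 8.45 for Kcnj8, 7.64 for Rgs5, 7.43 for Pdgfrb, 0.889 for Abcc9 and 0.136 for Myh11. In MON the order began with Vtn (63.7 FPKM) and Tagln (59.3), Kcnj8, Pdgfrb, Acta2 and Rgs5 followed between 5.01 and 4.14, and Cnn1 was at 1.07. In retina Vtn stood far above the others at 768 FPKM, followed by Rgs5 at 9.29, and Cnn1 was last at 0.0935. Neighbours in these orders overlapped in their ranges over libraries, except Pdgfrb above Abcc9 in UON, Tagln above Kcnj8 and Abcc9 above Myh11 in MON, and Vtn above Rgs5, Rgs5 above Acta2 and Kcnj8 above Abcc9 in retina. The plot of FPKM by library shows these levels.

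**Figure D1:**
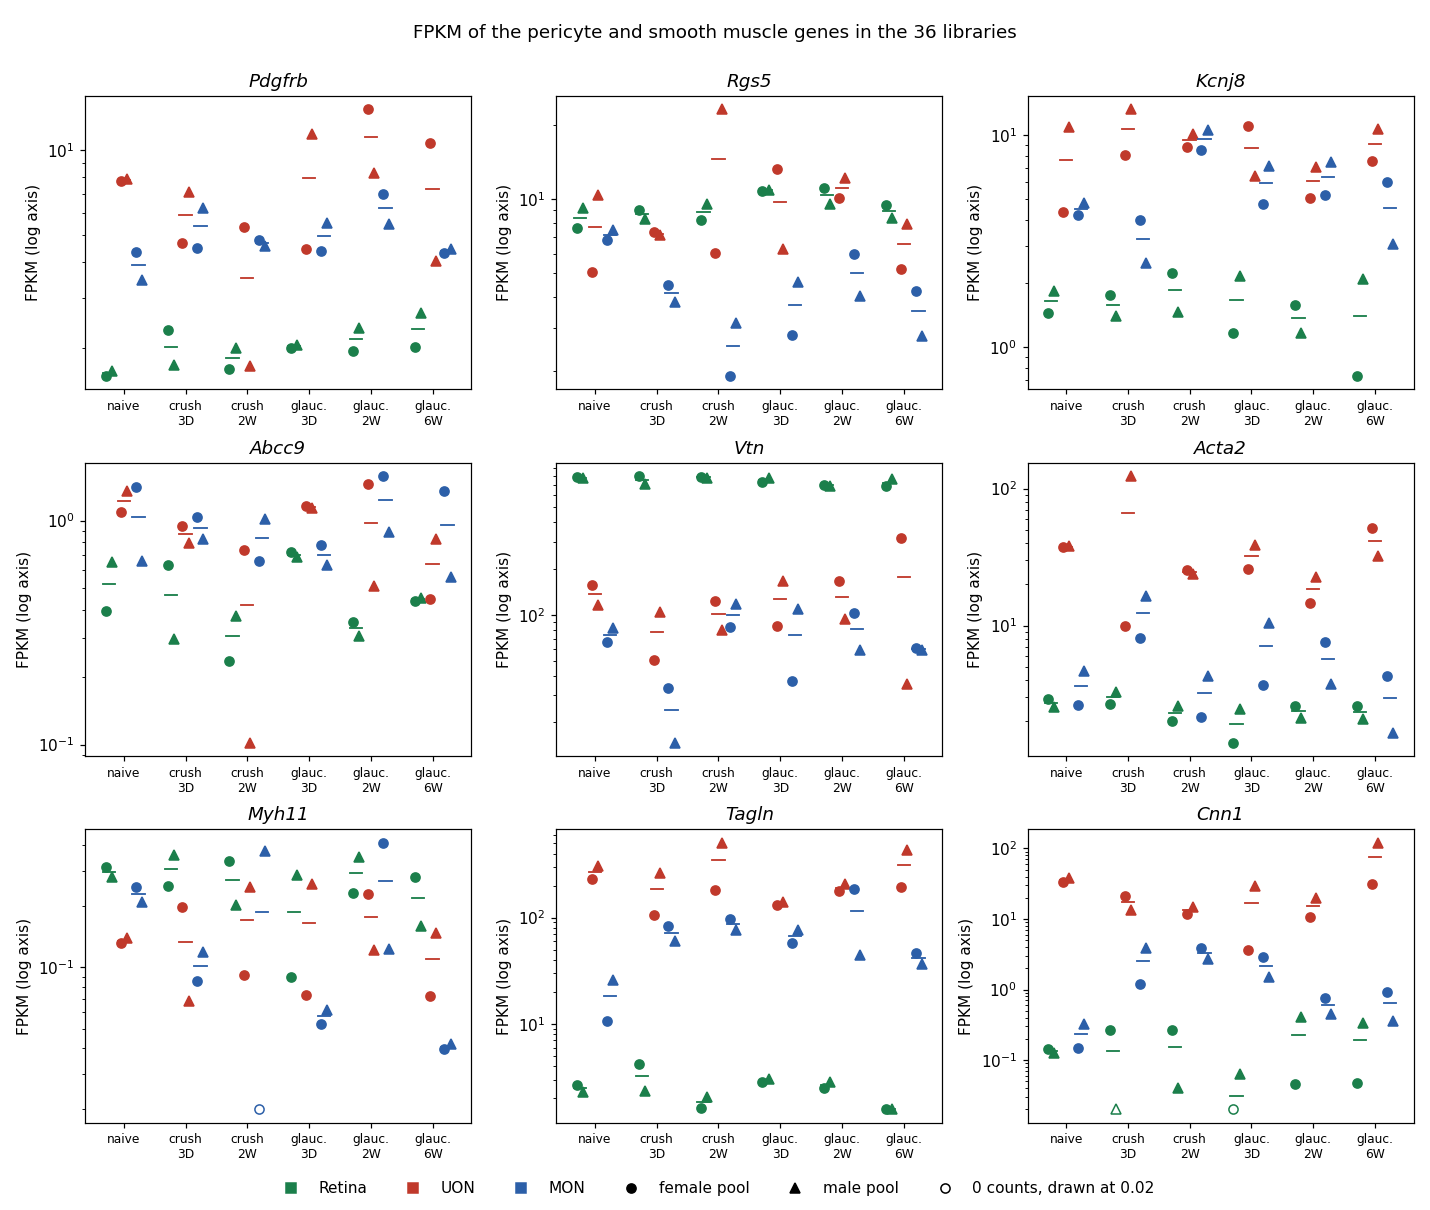
FPKM on a log axis of each member in the 36 libraries, by condition (x axis) and tissue (green retina, red UON, blue MON). Circles are female pools, triangles male pools, short lines the mean of the 2 pools, and open symbols libraries with 0 counts, drawn at 0.02. Vtn is highest in retina (688 to 800 FPKM), Tagln and Cnn1 have their highest medians in UON (199.99 and 20.6 FPKM), and Tagln and Cnn1 in naïve MON lie below all injured MON libraries.

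The naïve tissues were compared to ask which of the 9 members differ by region before injury. Acta2, Tagln and Cnn1 were higher in UON than in MON, and the pericyte genes and Myh11 were not called. Of the 9 members 3 were called in this comparison, all higher in UON, against 9.63% of the 23685 genes tested (4.83% higher and 4.8% lower). Fewer cells of a type and less RNA per cell cannot be told apart in such bulk samples.

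Cnn1, calponin, which binds actin and slows myosin in smooth muscle, stood at 33.9 and 37.7 FPKM in the naïve UON pools. It was at 0.1501 and 0.324 in naïve MON and at 0.144 and 0.124 in naïve retina. Both UON pools were thus far above every other naïve library. The log2 fold change was 7.28 ± 0.37 (SE, n = 2 pools each, adjusted p = 0.00139), and the MON values rest on 32 and 16 counts.

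Tagln, transgelin or SM22, an early marker of the contractile program, was at 230.4 and 307.8 FPKM in naïve UON, 10.7 and 25.7 in naïve MON and 2.67 and 2.30 in naïve retina. The 3 tissues did not overlap, and the share of all genes with such a separation was not computed. The log2 fold change was 3.92 ± 0.37 for UON over MON (adjusted p = 0.00186), 7.13 ± 0.43 for UON over retina (adjusted p = 3.96e-05) and 3.21 ± 0.37 for MON over retina (adjusted p = 0.000605). Tagln was the one contractile member called in all 3 regional comparisons.

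Acta2, smooth muscle alpha-actin, was at 37.1 and 37.8 FPKM in naïve UON, 2.61 and 4.65 in naïve MON and 2.91 and 2.56 in naïve retina. UON was higher than MON (3.34 ± 0.30, adjusted p = 0.00161) and than retina (4.15 ± 0.31, adjusted p = 7.66e-05). MON and retina overlapped in FPKM, though not in CPM (counts scaled to library size), with a log2 fold change of 0.81 ± 0.28 that was not called (adjusted p = 0.0677). Myh11 was at 0.131 and 0.140 FPKM in naïve UON, below the 0.250 and 0.210 of MON and the 0.312 and 0.279 of retina, and none of its regional comparisons was called.

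Pdgfrb and Kcnj8 were higher and Vtn lower in both nerve regions than in retina, and no pericyte gene was called between the nerve regions. Against retina 6 of 9 members were called in UON, 5 higher and 1 lower (background 31.7% of genes, 18.2% higher and 13.5% lower), and 4 of 9 in MON, 3 higher and 1 lower (background 27.6%, 16.7% higher and 10.9% lower). Pdgfrb was at 7.77 and 7.86 FPKM in naïve UON, 4.35 and 3.47 in MON and 1.59 and 1.66 in retina. It was higher than retina by 2.65 ± 0.26 on the log2 scale in UON (adjusted p = 0.000273) and by 1.73 ± 0.25 in MON (adjusted p = 0.00201), though limma on log2(FPKM + 1) gave 0.90 in MON, under the limit for a call. The step from MON to UON was 0.93 ± 0.25 without a call (adjusted p = 0.061).

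Kcnj8, the channel pore Kir6.1, was at 4.36 and 10.96 FPKM in naïve UON, 4.22 and 4.80 in MON and 1.45 and 1.84 in retina. It was called higher than retina in UON (2.58 ± 0.43, adjusted p = 0.00329) and MON (1.99 ± 0.42, adjusted p = 0.0102). Without the female naïve MON pool the MON call was lost (adjusted p = 0.0741). Abcc9, its partner SUR2, was at 1.10 and 1.35 FPKM in UON, 1.41 and 0.662 in MON and 0.394 and 0.651 in retina, and had log2 fold changes over retina of 1.57 ± 0.53 and 1.44 ± 0.54 (adjusted p = 0.0554 and 0.0892), both of which DESeq2 called (adjusted p = 0.0168 and 0.0439). Their pancreatic and neuronal counterparts Kcnj11 and Abcc8 were lower in UON than in retina, by calls of -3.20 and -6.21 on the log2 scale. Kcnj11 had a median of 0.0132 FPKM in UON, of 0.0341 in MON and of 1.07 in retina, and Abcc8 reached 2.48 to 5.99 in retina and at most 0.252 in any nerve library.

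Rgs5, a regulator of G protein signaling abundant in pericytes, had no call between the naïve tissues. It was at 5.08 and 10.40 FPKM in UON, 6.80 and 7.50 in MON and 7.64 and 9.16 in retina, and its 3 regional log2 fold changes lay between -0.03 and 0.24. Vtn, vitronectin, an adhesive protein of plasma and matrix that brain pericytes make, was at 157.5 and 115.7 FPKM in naïve UON, 66.6 and 82.2 in MON and 791 and 775 in retina. It was lower than retina in UON (-2.13 ± 0.25, adjusted p = 0.000664) and in MON (-2.93 ± 0.26, adjusted p = 0.000201). Vtn was the one member higher in retina by a call, in the tissue where the photoreceptor genes summed to 27321 to 27573 FPKM. The part of photoreceptors in it was not tested.

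**Figure D2:**
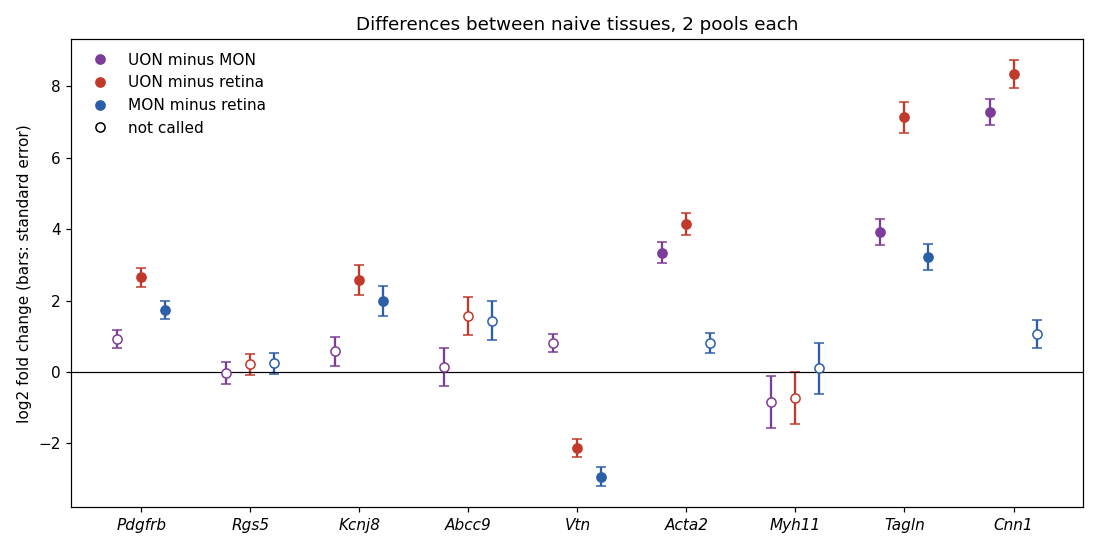
Log2 fold changes between the naïve tissues for the 9 members (purple UON minus MON, red UON minus retina, blue MON minus retina), with standard errors from the model on 2 pools per tissue. Filled symbols were called. Acta2, Tagln and Cnn1 stand at 3.34, 3.92 and 7.28 in UON over MON, and Vtn is below 0 in both nerve regions against retina.

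Other contractile genes were higher in naïve UON than in MON in 9 of 23 and lower in 2, with a median log2 fold change of 0.87, beside -0.06 over all genes tested. The highest were Pdlim3 (4.09, adjusted p = 0.00335), a protein of the Z line, and Filip1l (3.18, adjusted p = 0.00152). The tropomyosins Tpm2 (3.09) and Tpm1, the myosin light chain Myl9 (1.92) and its kinase Mylk (1.64) were among the 9. The 2 lower genes were Ppp1r14a (-3.46), an inhibitor of myosin phosphatase, and Nrip2 (-1.16). Of the 10 tested SRF and myocardin factors edgeR called 0, with 2 at an unadjusted p under 0.05 (median 0.58). Srf had a log2 fold change of -0.21 ± 0.56.

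Other pericyte genes were called higher in UON in 2 of 20 and lower in 2, with a median of 0.75. Cox4i2 (1.73) and Lhfp (1.64) were higher, and Gucy1a1 (-2.67) and Cspg4 (-2.002) were lower. Of the PDGF ligands and the sister receptor, 1 of 5 was called, Pdgfc (1.63, adjusted p = 0.0225), and Pdgfb, the ligand that endothelium offers to Pdgfrb, had 0.55 ± 0.42. Among relatives by sequence, Cnn2 (1.71) and Tagln2 (1.51) were higher in UON and Tagln3, the neuronal form, was lower (-1.73).

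Markers of other cells differed between naïve UON and MON in some lists and not in others. Of all genes tested 4.83% were called higher in UON and 4.8% lower. Fibroblast, sclera and meninges genes were higher in UON than MON in 6 of 10 (median 2.16), led by Slc6a13 (3.55) and Col1a2 (3.53), and summed to 709.7 to 774.7 FPKM in the naïve UON pools and 136.7 to 169.7 in naïve MON. Endothelial genes were called in 0 of 10 by edgeR, with 1 at an unadjusted p under 0.05 (median 0.24), and summed to 50.2 to 71.3 FPKM in UON and 44.4 to 51.3 in MON. Pecam1 and Cldn5 had log2 fold changes of -0.02 and 0.28. Astrocyte genes were higher in 2 of 5, Slc1a3 (2.33) and Gja1 (2.16), and all 5 oligodendrocyte genes were lower, with Mog at -3.54. The part of fibroblasts, astrocytes or the smaller oligodendrocyte share in the contractile gene differences was not tested.

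After crush, each time was compared with naïve in each tissue to see how the genes respond to a direct axon injury. Of 54 tests 1 was called: Acta2 rose in MON at 3D. The background was 4.26% of genes in MON at 3D (3.61% higher), 2.72% in MON at 2W (2.13% higher), 0% in UON at 3D, 0.0281% in UON at 2W, 0.0221% in retina at 3D and 0.313% in retina at 2W. These shares are those of edgeR. At an unadjusted p under 0.05 edgeR had 12 of the 54, 9 of them in MON. The share of all genes under that unadjusted p was not computed for any comparison. DESeq2, the tool of the study, called 8 of 54, 7 in MON and 1 in UON. It also called more genes in all, 2386 and 1726 in MON at 3D and 2W, 216 and 516 in UON and 135 and 346 in retina.

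Acta2 in MON was at 2.61 and 4.65 FPKM in naïve pools, 8.10 and 16.42 at 3D after crush and 2.17 and 4.27 at 2W. Both pools at 3D were above both naïve pools, and those at 2W overlapped them. Over 15934 genes with a mean of at least 1 CPM in MON, both pools were above both naïve pools for 26.8% at 3D and 26.2% at 2W, and below both for 31.1% and 24.3%, so that such a separation was common. The log2 fold change was 1.67 ± 0.33 at 3D (adjusted p = 0.0371) and -0.31 ± 0.33 at 2W (adjusted p = 0.753). The call at 3D was lost without the female or the male naïve MON pool or the male crushed pool (adjusted p = 0.15, 0.254 and 0.205), without the sex term (adjusted p = 0.0844), and with all 36 libraries in 1 fit (adjusted p = 0.2).

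Tagln in MON was at 10.7 and 25.7 FPKM in naïve pools, 83.4 and 60.4 at 3D and 97.3 and 76.6 at 2W. Both pools of each time lay above both naïve pools, as in the shares of genes just given. The log2 fold changes of 2.00 ± 0.44 and 2.19 ± 0.44 were not called (adjusted p = 0.0521 and 0.0506). DESeq2 called both, with adjusted p = 9.8e-05 and 1.63e-05.

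Cnn1 in MON was at 0.1501 and 0.324 FPKM in naïve pools, 1.205 and 3.92 at 3D and 3.83 and 2.73 at 2W. The crushed pools rest on 30 and 507 counts at 3D and 61 and 216 at 2W. In CPM they were at 1.75 and 10.4 at 3D and 3.84 and 6.62 at 2W, where the order of the pools was the reverse of that in FPKM. The log2 fold changes of Cnn1 were 2.78 ± 0.66 and 2.88 ± 0.65 (adjusted p = 0.0629 and 0.0675), and DESeq2 called both (adjusted p = 0.00284 and 0.00227). Even so, the crushed MON pools stayed below the lowest crushed UON pool, which had 11.8 FPKM.

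The pericyte genes of MON did not share this direction. Rgs5 was at 6.80 and 7.50 FPKM in naïve pools, 4.50 and 3.81 at 3D and 1.91 and 3.15 at 2W. Both times lay below naïve, as they did for the 31.1% and 24.3% of genes given above, with log2 fold changes of -0.83 ± 0.34 and -1.62 ± 0.35 (adjusted p = 0.225 and 0.06), and DESeq2 called the second (adjusted p = 0.00109). Vtn was at 33.7 and 14.7 FPKM at 3D, below the 66.6 and 82.2 of naïve MON, and at 83.8 and 117.1 at 2W. In CPM the pools at 2W, 164 and 247, overlapped the naïve 161 and 174. Its log2 fold changes were -1.71 ± 0.44 (adjusted p = 0.0782) and 0.34 ± 0.42. The first was called by 5 of 7 other settings, namely DESeq2 (adjusted p = 0.000386), no filter on low counts, no sex term and limma at either pseudocount. Kcnj8 was at 3.97 and 2.49 FPKM at 3D and 8.50 and 10.63 at 2W around the naïve 4.22 and 4.80, with no call at either time. Pdgfrb (0.40 and 0.13) and Abcc9 (-0.16 and -0.44) had log2 fold changes closer to 0.

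In MON at 3D after crush the companion lists also held few calls. Tagln2 (1.80, adjusted p = 0.0195), Actb (1.88, adjusted p = 0.0481) and Pdlim7 (1.49, adjusted p = 0.0267) rose, and Fbln1 (-1.65, adjusted p = 0.0363) fell. At 2W Mef2c rose (1.84, adjusted p = 0.0307) and Mog fell (-1.67, adjusted p = 0.0449). Endothelial genes summed to 93.6 to 112 FPKM at 3D and 25.1 to 54.5 at 2W, beside 44.4 to 51.3 in naïve MON. EdgeR called 0 of the 10 at either time, with 4 at an unadjusted p under 0.05 at 3D and 0 at 2W. Fibroblast, sclera and meninges genes summed to 133 to 215 FPKM at 3D and 257 to 435 at 2W, beside 137 to 170 in naïve MON. Their part in the members' values was not tested.

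In UON after crush 0 of 18 tests were called by edgeR, 3 had an unadjusted p under 0.05, and DESeq2 called 1. That one was Cnn1 at 2W (adjusted p = 0.00675), with an edgeR log2 fold change of -1.68 ± 0.34 (adjusted p = 0.367). Cnn1 was at 21.5 and 13.4 FPKM at 3D and 11.8 and 14.8 at 2W, all below the naïve 33.9 and 37.7. Both pools were below both naïve pools in CPM for 21.1% of 15535 genes in UON at 3D and for 26.4% at 2W. Acta2 diverged between the pools of one time, at 9.92 FPKM in the female and 123 in the male pool at 3D, around the naïve 37.1 and 37.8.

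The male UON pool at 2W after crush, which stood apart in its cell markers, also had extreme values of 4 members. It held the highest Rgs5 (23.1 FPKM) and Tagln (505) of all 36 libraries, and the lowest Abcc9 of all (0.102) and Pdgfrb of any nerve library (1.72). The female pool of the same time was at 6.03, 183, 0.738 and 5.32. Cnn1 was at 14.8 beside 11.8. Pdgfrb and Abcc9 in UON at 2W had log2 fold changes of -1.30 ± 0.53 and -1.96 ± 0.86, with no call, and of -0.47 and -0.73 without this pool, where Cnn1 had -1.82. In retina after crush 0 of 18 tests were called by edgeR, limma or DESeq2, and none had an unadjusted p under 0.05.

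In glaucoma no member was called: 0 of 81 tests by edgeR, with 11 at an unadjusted p under 0.05 (4 in UON, 7 in MON, 0 in retina). DESeq2 called 1, Cnn1 in MON at 3D (adjusted p = 0.00501), and limma on FPKM called 0. The edgeR background was 0% at each time in UON and in MON and 0.00429%, 0% and 0.00858% in retina at 3D, 2W and 6W. At the same times DESeq2 called 445, 509 and 68 genes in MON, 128, 76 and 34 in UON and 161, 101 and 114 in retina.

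Tagln and Cnn1 in glaucoma MON lay above naïve, as they did after crush, without a call. Tagln was at 58.1 and 76.4 FPKM at 3D, 185 and 44.5 at 2W and 46.0 and 37.0 at 6W, beside 10.7 and 25.7 in naïve MON. All 6 pools were above naïve, where 20.9%, 22.5% and 24.9% of genes had both pools of these times above, with log2 fold changes of 1.86 ± 0.66, 2.46 ± 0.71 and 1.197 ± 0.66. Cnn1 was at 2.88 and 1.495 FPKM at 3D, 0.748 and 0.456 at 2W and 0.931 and 0.361 at 6W, beside 0.1501 and 0.324, with log2 fold changes of 2.80 ± 0.69, 1.17 ± 0.66 and 0.69 ± 0.66. Acta2 overlapped naïve at each glaucoma time.

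Taking the 10 injured MON libraries of both models one by one, Tagln and Cnn1 were above both naïve pools in 10 of 10 and Rgs5 was below both in 10 of 10. Among all 15934 genes with a mean of at least 1 CPM in MON, 5.29% had all 10 above and 4.15% all 10 below. These comparisons share the same 2 naïve MON pools and are not independent of each other. Rgs5 in glaucoma MON was at 2.82 and 4.62 FPKM at 3D, 5.96 and 4.03 at 2W and 4.25 and 2.78 at 6W, beside 6.80 and 7.50 in naïve MON.

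UON in glaucoma showed wide pool differences. Cnn1 was at 3.62 and 29.6 FPKM at 3D, 10.7 and 19.7 at 2W and 31.6 and 121 at 6W, beside the naïve 33.9 and 37.7. Both pools at 3D and at 2W were below both naïve pools, as they were for 20.1% and 21.5% of genes. Vtn was at 317 FPKM in the female pool at 6W and 35.4 in the male pool, the highest and the lowest of the UON libraries, within 1 group. Pdgfrb at 6W was at 10.5 and 4.05. Pdgfrb was above both naïve pools in 10 of 10 injured retina libraries, at 1.68 to 2.66 FPKM beside 1.59 and 1.66, against 2.33% of 16192 genes, and its log2 fold changes of 0.17 to 0.45 had no call.

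**Figure D3:**
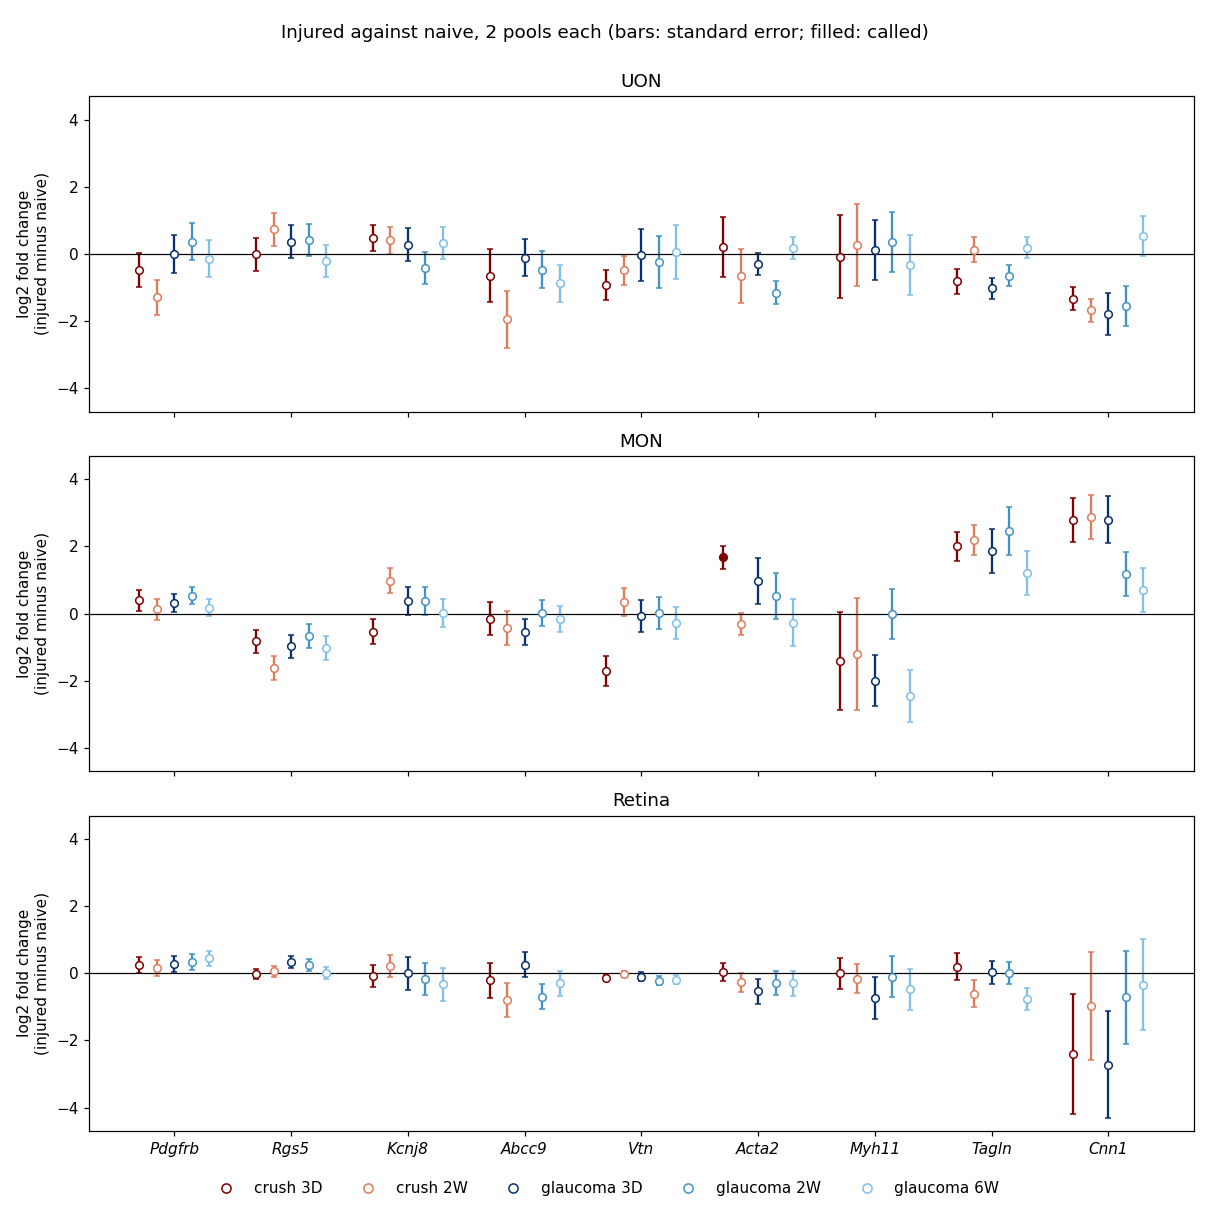
Log2 fold changes of injured over naïve pools for the 9 members in UON, MON and retina, with standard errors from the model. Dark red and orange are 3D and 2W after crush, and dark to light blue 3D, 2W and 6W of glaucoma. The 1 filled symbol is Acta2 in MON at 3D after crush (1.67), Tagln in MON lies between 1.197 and 2.46 and Rgs5 in MON between -0.67 and -1.62, and no symbol in UON or retina was called.

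Whether the 2 nerve regions responded differently was tested as a difference of responses, the UON change minus the MON change at the same time. Of 45 tests 0 were called by edgeR, 10 had an unadjusted p under 0.05, DESeq2 called 6, and with the pool of mice as a block 0 were called. The edgeR background was 0.012% for crush 3D and 0% for crush 2W and each glaucoma time. DESeq2 called 294 and 624 genes for crush 3D and 2W, and 62, 124 and 32 for glaucoma 3D, 2W and 6W. The Cnn1 difference was -4.26 ± 0.85 at 3D after crush, -4.56 ± 0.85 at 2W after crush and -4.51 ± 1.15 at 3D of glaucoma, with adjusted p of 0.25, 0.146 and 0.791. DESeq2 called these 3 (adjusted p = 0.000787, 0.000173 and 0.0169). Tagln had -2.83 ± 0.69 at 3D after crush and -3.34 ± 0.82 at 2W of glaucoma, which DESeq2 also called (adjusted p = 0.0198 and 0.0188). For the responses of Rgs5 at 2W after crush the difference was 2.46 ± 0.66 (adjusted p = 0.227, by DESeq2 0.0197), and 1.43 without the male UON pool that stood apart.

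UON and MON were also compared directly at each injury time. Of 45 tests 7 were called, all higher in UON, beside a background in either direction of 5.06% at crush 3D (3.28% higher), 1.56% at crush 2W (0.536% higher), 1.92% at glaucoma 3D (0.872% higher), 5.24% at glaucoma 2W (1.88% higher) and 5.33% at glaucoma 6W (2.62% higher). Cnn1 accounted for 4 of the 7. Its UON minus MON log2 fold change, 7.28 in naïve mice, was 3.07 ± 0.61 and 2.77 ± 0.59 at 3D and 2W after crush (adjusted p = 0.019 and 0.0466), 4.47 ± 0.86 at 2W of glaucoma (adjusted p = 0.00947) and 7.20 ± 0.96 at 6W (adjusted p = 0.0023). At 3D of glaucoma it was 2.82 ± 0.80 without a call (adjusted p = 0.107). The calls were lost without the female UON pool at 3D after crush (adjusted p = 0.063), either MON pool at 2W after crush (adjusted p = 0.135 and 0.128), and the male MON pool at 2W of glaucoma (adjusted p = 0.103). At 2W after crush the call was also lost without the sex term (adjusted p = 0.0691) and with all 36 libraries in 1 fit (adjusted p = 0.0659).

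At 6W of glaucoma Acta2 (3.79 ± 0.62, adjusted p = 0.00496) and Tagln (2.89 ± 0.60, adjusted p = 0.0164) were called beside Cnn1. Acta2 was at 51.2 and 32.0 FPKM in UON and 4.32 and 1.63 in MON at that time, and Tagln at 195 and 436 in UON and 46.0 and 37.0 in MON. The Tagln call was lost without 1 UON pool or either MON pool of that time (adjusted p = 0.0559 to 0.162). Across the 12 pools, Acta2 and Cnn1 were higher in UON than in the MON of the same mice in 12 of 12, Tagln and Rgs5 in 11, Pdgfrb and Vtn in 10, Kcnj8 in 8, Myh11 in 6 and Abcc9 in 5. The share of all genes with such counts was not computed, so these counts are a description only.

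Rgs5 at 2W after crush was higher in UON than in MON (2.48 ± 0.49, adjusted p = 0.0335), with 6.03 and 23.1 FPKM against 1.91 and 3.15. Without the male UON pool that stood apart the value was 1.43 and the call was lost (adjusted p = 0.155), as it was without either MON pool (adjusted p = 0.106 and 0.107) and without the sex term (adjusted p = 0.0538). Without that term 5 of 45 were called. With the pool of mice as a block, a fit that called 1533 genes at crush 3D and 697 at crush 2W, 11 of 45 were called. The added ones were Acta2 at crush 2W, glaucoma 3D and glaucoma 2W (adjusted p = 0.015, 0.0151 and 0.0314) and Kcnj8 at crush 3D (adjusted p = 0.0419).

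**Figure D4:**
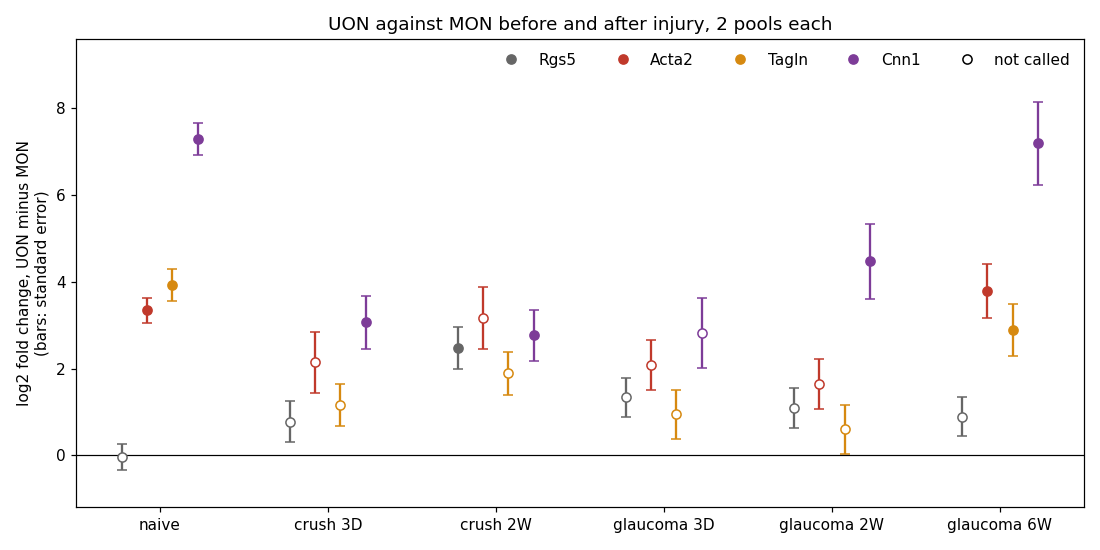
UON minus MON log2 fold changes with standard errors for Rgs5 (grey), Acta2 (red), Tagln (orange) and Cnn1 (purple) in naïve mice and at each injury time, 2 pools per region. Filled symbols were called, and naïve values come from the fit of naïve libraries. Cnn1 is at 7.28 in naïve mice, between 2.77 and 4.47 at the next 4 conditions and at 7.20 at 6W of glaucoma.

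Crush and glaucoma were compared with each other at 3D and 2W in each tissue, and late with early times within each model. Neither had a call by edgeR. For crush against glaucoma 0 of 54 were called, 4 had an unadjusted p under 0.05, and DESeq2 called 1, Vtn in MON at 3D. The edgeR background was 0% and 0.0418% in UON at 3D and 2W, 0.0162% and 0.0485% in MON, and 0.0081% and 0.113% in retina. At 3D and 2W DESeq2 called 12 and 538 genes in UON, 573 and 368 in MON and 36 and 182 in retina. Vtn in MON at 3D was at 33.7 and 14.7 FPKM after crush and at 37.3 and 110.1 in glaucoma, with a log2 difference of -1.73 (adjusted p = 0.361).

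For late against early times 0 of 54 were called, 8 had an unadjusted p under 0.05 and DESeq2 called 4. The edgeR background was 0.00468% for UON crush, 0.075% for MON crush, 0.0485% for retina crush, 0% for UON and MON glaucoma and 0.0129% for retina glaucoma. DESeq2 called 358, 1060 and 161 genes for crush in UON, MON and retina, and 130, 184 and 92 for glaucoma. In MON from 3D to 2W after crush the log2 changes were -1.98 ± 0.34 for Acta2 (adjusted p = 0.0926), 2.05 ± 0.45 for Vtn (adjusted p = 0.132) and 1.51 ± 0.38 for Kcnj8 (adjusted p = 0.169). DESeq2 called these 3. In UON glaucoma Cnn1 had 2.30 from 3D to 6W (adjusted p = 0.945, by DESeq2 0.0132), where the female pools were at 3.62 and 31.6 FPKM and the male pools at 29.6 and 121.

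Correlations between the members ranged from negative to positive. Over the 12 libraries of a tissue, Pearson correlations of log2 CPM between pairs of members had medians of -0.02 in UON, 0.10 in MON and 0.09 in retina, given as a description over libraries that share mice and conditions. Kcnj8 and Vtn had 0.75 in MON and -0.45 in UON, and the channel partners Kcnj8 and Abcc9 had -0.06 in MON and -0.21 in UON. Tagln and Cnn1 had 0.59 in MON and 0.46 in UON. Pdgfrb and Rgs5 had -0.61 in UON and 0.05 in MON. The UON value includes the male pool at 2W after crush, which had the lowest Pdgfrb and the highest Rgs5 of UON. Correlations without that pool were not computed.

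Over all 24 nerve libraries, the genes most like Acta2 among 15940 were Tpm1 (r = 0.918), Tpm2 (0.917), both tropomyosins of the contractile apparatus, and Tgfb1i1 (0.886). Those most like Tagln were Anxa3 (0.919), Prss23 (0.898) and Smpdl3a (0.896), and those most like Cnn1 were Tes (0.936), Fstl3 (0.935) and Pakap (0.933). These values span both regions. Within the 12 UON libraries Cnn1 and Fstl3 had 0.469 and Cnn1 and Pakap 0.885. For Pdgfrb the nearest were Slc16a12 (0.882), Sec31a and Ogdh, for Rgs5 Ppp2cb (0.842), Aida and Hexim1, and for Kcnj8 1500009L16Rik (0.799), Kcne1l and Tmem176a. For Vtn they were Slc19a1 (0.895), Hcar1 and Itm2c, for Abcc9 Gm7902 (0.838), Dido1 and Rnf214, and for Myh11 3110056K07Rik (0.742), C330013E15Rik and Gata2.

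The estimated counts per transcript placed most of each gene on 1 isoform. Cnn1-201 took 94.0% of the Cnn1 counts in UON, Tagln-201 97.0% of Tagln, and Acta2-201 100% of Acta2. Abcc9 was split between Abcc9-204 and Abcc9-203 in the nerve, at 49.2% and 37.2% of counts in UON and 58.0% and 40.4% in MON, whereas Abcc9-204 took 97.6% in retina and Abcc9-203 none of 1661 counts. Pdgfrb-202 held 29.2% of Pdgfrb in retina, 3.63% in UON and 0.0187% in MON. The retained-intron form Tagln-203 was 15.1% of the 1788 Tagln counts in retina and 2.95% in UON. These shares sum 12 libraries of a tissue, in which deeper libraries weigh more, and have no test.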

How the data were processed

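RNA-seq was measured in 36 libraries of retina, UON and MON, grouped by the tissue, treatment, time and sex in their labels. Reads were mapped by the authors against GRCm38 (HISAT2, v2.2.1), and StringTie (v1.3.0) then quantified Gencode M25 genes. Its count script gave the deposited estimated counts (expected counts) per gene, from coverage and length and without normalization, and the strand setting is not stated. The deposited FPKM are the authors' StringTie values per library. Of these, 15 values just below 0 were set to 0.

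From the counts, edgeR 4.0.16 (R 4.3.3) was used with TMM normalization, filterByExpr (minimum count 10, minimum total 15) and the quasi-likelihood F test with group and sex as terms, adjusted by Benjamini-Hochberg over all genes tested. There were 40 comparisons: 3 regional in 6 naïve libraries, each time against naïve, crush against glaucoma and late against early times within a tissue, and UON against MON responses. All fits left few residual degrees of freedom with 2 pools per group. In the main fits the sex term takes up the shared difference between female and male pools. The p-values and standard errors measure the spread between pools left after it, with spread borrowed across genes. Each edgeR standard error was taken as the absolute log2 fold change over the square root of its F statistic. It is therefore not an estimate separate from the p-value. The fits were tested on simulated counts with 200 genes changed by a log2 fold change of 3. They called 62.5% of these for naïve UON against MON. The share was 65% for MON at 3D after crush and 55% for UON at 3D of glaucoma, each against naïve. Of the unchanged genes 5, 3 and 6 were called. Simulated spread followed the trend over genes, without a spread particular to each gene, so these shares need not hold for the real data. Alternatives were DESeq2 1.42.0, limma 3.58.1 on log2(FPKM + 1) and log2(FPKM + 0.1), other size factors, no filter, 1 fit of all libraries, no sex term, each library left out, and the pool of mice as a block. The block rests on the study's statement that each mouse gave all 3 tissues. Over 15940 genes, female minus male differences in UON and MON correlated at 0.0218 to 0.23 in the 6 conditions.

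The members and the companion lists were chosen with earlier results of these data known. Named genes are the 9 members, up to 2 called genes of each list per direction in regional and naïve comparisons, the 3 genes most correlated with each member over 24 nerve libraries, overlapping genes and relatives by sequence. Genes outside that rule, such as Myocd, Kcnmb1, Lmod1, Higd1b, Notch3, Srf, Pdgfb, Pecam1, Cldn5, Tpm1, Tpm2, Myl9, Mylk, Casq2 and Des, were named after their values were seen. Promoter windows are from RefSeq (GRCm38.p6). TPM and coverage columns were not used.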

Additional observations from a re-analysis of the deposited data

Results flagged for a closer look

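Some responses had opposite directions in 2 tissues at the same time, with both pools of one tissue above and both pools of the other below their naïve pools in CPM (counts scaled to library size). Differences between nerve and retina responses were not tested. Each separation alone was common among genes with a mean of at least 1 CPM. At 3D after crush 26.8% had both MON pools above naïve and 22.5% both retina pools below. The share with opposite directions was not computed. Between UON and MON, Cnn1 had both pools below naïve in UON and both above in MON at 3D and 2W of each model. Tagln did so at 3D and 2W of glaucoma. Differences of response between UON and MON were tested, and edgeR called 0. After crush, Pdgfrb had log2 fold changes of -0.48 in UON and 0.24 in retina at 3D, and of -1.30 and 0.17 at 2W, where the value for Pdgfrb in UON was -0.47 without the male pool. In glaucoma Rgs5 had -0.98 in MON and 0.33 in retina at 3D, and -0.67 and 0.25 at 2W. Tagln had 2.19 in MON and -0.61 in retina at 2W after crush, and 1.197 and -0.76 at 6W of glaucoma. Cnn1 had 2.78 in MON and -2.40 in retina at 3D after crush, and 2.80 and -2.72 at 3D of glaucoma, where the retina values rest on 0 to 18 counts per library, with 1 of the injured retina pools at 0 counts at each of these times. In FPKM the female retina pool at 3D after crush was above its naïve pools for Cnn1, at 0.266 beside 0.144 and 0.124. Of these values none passed the threshold against naïve in edgeR.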

How the results depend on the processing

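Results rest on 2 pools per group. No called member value changed its sign under any setting. The 13 regional calls ranged from 12 to 15 over the other settings and from 13 to 15 with a library left out. After crush, the 1 call became 2 with all 36 libraries in 1 fit, 8 with DESeq2, 7 with no filter on low counts, 4 without the sex term, and 4 and 6 with limma at pseudocounts of 1 and 0.1. It ranged from 0 (without the female naïve MON pool) to 4 (without the female MON pool at 3D, or the male MON pool at 2W) with a library left out, and was 2 without the male naïve MON pool or the female MON pool at 2W. After glaucoma the 0 calls became 1 with DESeq2 and stayed at 0 with any library left out. The 0 differences of response became 6 with DESeq2 and 5 with no filter, and 0 to 4 with a library left out (4 without the female UON pool at 2W after crush). For UON against MON after injury the 7 calls became 15 with DESeq2, 16 with no filter, 10 with all 36 libraries in 1 fit, 5 without the sex term (Rgs5 and Cnn1 at 2W after crush were lost) and 11 with the pool of mice as a replicate block, and 5 to 11 with a library left out (11 without the female UON pool at 2W after crush). The block left the 7 calls in place and changed no call elsewhere. Both maxima reached without the female UON pool at 2W after crush rest on the male pool that stood apart, alone in its group. The 0 calls of crush against glaucoma became 1 with DESeq2 and 1 with no filter, and 0 to 1 with a library left out (1 without the female MON pool at 3D of glaucoma). The 0 calls of late against early times became 4 and 3, and 0 to 3 with a library left out (3 without the female MON pool at 3D or at 2W after crush). The cause of these differences was not tested. Over all genes, edgeR called 852 in MON at 3D after crush, DESeq2 2386, no filter 2110 and the fit of all libraries 1329, and 19 were called without the female naïve MON pool. At 2W the 544 became 1726 with DESeq2 and 17 without that pool. For naïve UON against MON the 2281 became 3675 with DESeq2. For UON against MON at crush 3D and 2W DESeq2 called 2610 and 2442 genes, and no filter 2431 and 2069. At glaucoma 3D, 2W and 6W DESeq2 called 1531, 2506 and 2639, and no filter 827, 1600 and 1790. For the differences of response no filter called 375 and 615 at crush 3D and 2W, and 5, 0 and 1 in glaucoma. A lone pool left in a group was assumed to vary like the others.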
